A study of Rattus norvegicus with 2 samples.

Results

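The 5 inflammasome genes Pycard, Casp1, Nlrp3, Gsdmd and Il18 were followed across the cells of the rat carotid artery after balloon injury. All 5 symbols were found among the 32623 genes of the count matrix. They were chosen by their measured levels across cell classes in these same libraries, so their distribution and their differences between libraries are given as a description, with no test. Single cells of Sprague-Dawley (SD) male rats were profiled with 10x Genomics droplets in 2 libraries. The control library held the untreated left carotid arteries of 2 rats, and the case library held the right carotid arteries of the same 2 rats 28 days after balloon injury. Balloon injury strips the endothelium and stretches the wall, and serves as a model of in-stent restenosis. The methods used rats of 8 weeks and took the arteries 28 days after the procedure, and the labels give an age of 12 weeks. The arteries of both animals were pooled, and no transgene or study drug is described. Under pentobarbital, the right side also received an arteriotomy and a ligation of the external carotid branch. The methods describe no sham operation on the left side. With 1 library a group, every interval below covers counting error only, and the condition and the library cannot be told apart.

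An inflammasome is a cytosolic platform of innate immunity. A sensor such as Nlrp3 (NLR family pyrin domain containing 3) recruits the adaptor ASC, encoded by Pycard, which in turn gathers and activates the protease caspase-1 (Casp1). Caspase-1 matures the interleukins IL-1β and IL-18 (Il18) and cleaves gasdermin D (Gsdmd), whose fragments form pores in the plasma membrane and can end in pyroptotic cell death. In the vessel wall the pathway is best known in macrophages.

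The RefSeq promoters of Pycard and Nlrp3 are shown because one was measured in every cell class and the other mostly in macrophage-like cells. Each run is the 250 bases before the RefSeq start in the GRCr8 build, chr1:192033420-192033669 on the minus strand for Pycard and chr10:44827848-44828097 on the plus strand for Nlrp3. Capitals mark matches to 6 motifs, searched on both strands. The Sp1 box was searched as GGGCGG and the box of the NF-Y factor was searched as CCAAT. The core of ETS factors was searched as GGAAGT and the site of PU.1, an ETS factor of myeloid cells, was searched as GAGGAA, and these motifs can overlap. The TATA box was searched as TATAAA and the gamma-activated site of STAT factors was searched as TTCNNNGAA.
Pycard: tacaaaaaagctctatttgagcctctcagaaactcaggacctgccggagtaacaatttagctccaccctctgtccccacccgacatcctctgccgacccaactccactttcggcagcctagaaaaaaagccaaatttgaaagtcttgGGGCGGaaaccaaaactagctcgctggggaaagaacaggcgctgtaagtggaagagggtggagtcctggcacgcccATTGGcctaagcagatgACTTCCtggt
Nlrp3: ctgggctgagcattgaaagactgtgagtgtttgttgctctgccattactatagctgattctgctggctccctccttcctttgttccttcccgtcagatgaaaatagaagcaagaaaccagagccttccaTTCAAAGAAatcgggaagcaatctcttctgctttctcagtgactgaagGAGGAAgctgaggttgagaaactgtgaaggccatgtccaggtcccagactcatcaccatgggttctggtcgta
Pycard held 1 match each to the Sp1, NF-Y and ETS letters, which occur in 30.5%, 34.0% and 19.2% of the 33469 RefSeq promoters of this length. Nlrp3 held 1 match to the PU.1 letters, found in 23.3% of promoters, and 1 to the gamma-activated site, found in 7.67%. TATAAA is found in 12.9% of promoters and in none of the 4 members searched. Of the 2 other members with a RefSeq promoter, Casp1 held 1 match each to the Sp1, ETS and PU.1 letters, while Il18 held none of the 6 motifs. The Pycard run held 8 CpG dinucleotides against 3 in Nlrp3, 2 in Casp1 and 4 in Il18, where the median promoter held 5. These matches describe letters and no binding was measured.

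After filtering, 2742 control and 4930 case barcodes remained, with median depths of 8880 and 5156 unique molecular identifiers (UMIs, each counted as 1 captured transcript). In the control library 27.5% of them held fewer than 2000 UMIs, against 6.49% in the case library. Cells were gated by summed marker panels into vascular smooth muscle cell (VSMC)-like (1469 control, 2587 case), fibroblast-like (802, 1538), endothelial-like (55, 250) and macrophage-like (39, 100) classes, while 353 and 407 barcodes, 12.9% and 8.26%, met no gate. Macrophage-like cells held the 12 markers of the macrophage panel at a summed 16653 and 18589 CPM (summed UMIs scaled to 1000000 for the class) in the control and case libraries. The same panel stood at 37.7 and 33.0 CPM in endothelial-like cells, 36.0 and 31.8 CPM in the fibroblast-like class and 25.0 and 23.0 CPM in the VSMC-like class. The macrophage-like class held no UMI of the neutrophil, B cell or dendritic panels in either library. It held 1 control and 4 case UMIs of the T cell panel. The VSMC panel stood there at 963 and 992 CPM and the fibroblast panel at 313 and 289 CPM. The endothelial panel stood at 15.6 and 43.6 CPM and the Schwann panel at 31.3 and 32.7 CPM. Barcode sequences that occur in both libraries numbered 21.

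**Figure D1:**
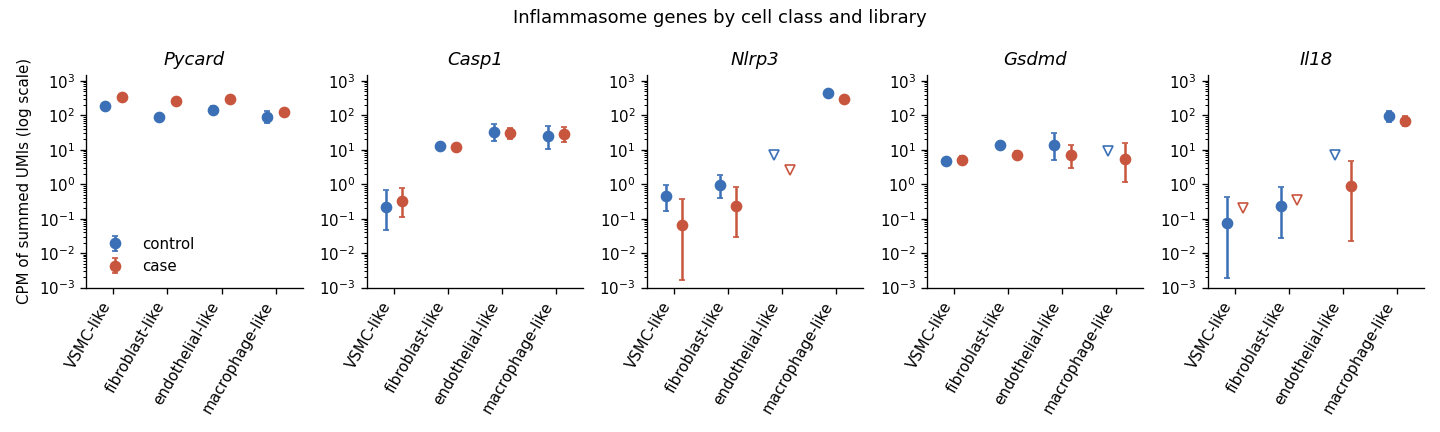
CPM of summed UMIs (log axis) of each gene in 4 cell classes, control in blue and case in red. Bars are exact 95% Poisson intervals and open triangles mark the level that 3 counts would give where no UMI was counted. Pycard lies between 86.6 and 334 CPM in every class, Nlrp3 and Il18 stand high in macrophage-like cells, and Casp1 is near 0 in VSMC-like cells.

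Pycard, the adaptor, was measured in every class of the artery. It stood at 189 CPM (95% interval 181 to 196) in control and 334 CPM (324 to 343) in case VSMC-like cells, from 2513 and 4952 UMIs. In fibroblast-like cells it stood at 86.6 CPM (80.5 to 93.0) in the control and 261 CPM (251 to 273) in the case library. Endothelial-like cells held 144 CPM (110 to 184) and 289 CPM (258 to 321). Macrophage-like cells held 90.6 CPM (60.7 to 130) and 124 CPM (96.0 to 157), but 1 control barcode gave 15 of the 29 control UMIs and the control level without it was 43.9 CPM. By pooled CPM the VSMC-like class was thus the highest and the macrophage-like class was among the lowest. The case library was above the control library in all 4 classes. This order was not matched for depth. In the control library 705 of the 2513 VSMC-like UMIs lay in 154 barcodes of a shallow cluster at 2309 CPM. The largest cluster, with 55.8% of the control VSMC-like cells, stood at 130 CPM, below the endothelial-like 144 CPM. In the control library, fibroblast-like and macrophage-like cells could not be ordered (ratio 0.955, 0.659 to 1.44), nor could fibroblast-like and endothelial-like cells in the case library (0.905, 0.806 to 1.02). The other neighbours in the order differed beyond counting error. In the control library VSMC-like cells exceeded endothelial-like cells by 1.31-fold (1.02 to 1.72) and endothelial-like cells exceeded macrophage-like cells by 1.58-fold (1.00 to 2.56). Both control ratios with macrophage-like cells, 0.955 and 1.58, keep the barcode of 15 Pycard UMIs, without which that class stood at 43.9 CPM. In the case library the steps were 1.16-fold (1.03 to 1.30) for VSMC-like over endothelial-like cells and 2.12-fold (1.66 to 2.73) for fibroblast-like over macrophage-like cells. VSMC-like cells held 59.1% of the Pycard UMIs of the control and 58.3% of those of the case library. They also held most UMIs of all genes, 13324555 of the 23974210 kept in the control and 14839262 of the 27054902 kept in the case library. The Pycard share is thus near that of all UMIs.

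Between libraries, the Pycard level of the case library was 3.02-fold higher in fibroblast-like cells (log2 1.59, 1.47 to 1.72). It was 2.01-fold higher in the endothelial-like class (log2 1.01, 0.61 to 1.43) and 1.77-fold higher in the VSMC-like class (log2 0.82, 0.75 to 0.89). In macrophage-like cells it was 1.36-fold higher (log2 0.45, -0.20 to 1.13), with an interval that included no difference. That ratio keeps the control barcode with 15 of the 29 control UMIs. Without barcodes under 2000 UMIs, which leaves it out, the log2 ratio was 1.45 (0.60 to 2.40). When cells were thinned to 1000 UMIs it was -1.12 (-2.34 to 0.12). Genes with at least 30 UMIs in a class over both libraries were compared in the same way as a background. Of 11126 such genes in VSMC-like cells 2.09% were at least 2-fold higher in the case library and 3.96% at least 2-fold lower. Among 10221 genes of fibroblast-like cells the shares were 3.15% and 3.96%. They were 8.14% and 4.39% of 3232 genes in the macrophage-like class and 10.6% and 12% of 5035 genes in the endothelial-like class. Pycard passed the 2-fold limit in fibroblast-like cells, at the 98.9th percentile of all genes compared, and just passed it in endothelial-like cells, at the 89.6th percentile. Its value in VSMC-like cells lay at the 96.4th percentile and below the limit. The median log2 ratio over all genes compared was 0.04 in macrophage-like, -0.07 in fibroblast-like, -0.14 in VSMC-like and -0.10 in endothelial-like cells. Scaling by trimmed means of M-values (TMM) moved all log2 ratios up by 0.13 in VSMC-like and 0.29 in endothelial-like cells.

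Most VSMC-like cells carried Pycard. A Pycard UMI was found in 56.6% (54.1 to 59.2) of control and 74.8% (73.1 to 76.5) of case VSMC-like cells, and in 42.4% (38.9 to 45.9) and 57.0% (54.5 to 59.5) of fibroblast-like cells. It was found in 58.2% and 56.4% of endothelial-like and in 28.2% and 32.0% of macrophage-like cells. When each cell was thinned to 1000 UMIs, the shares were 20.7% and 28.1% in VSMC-like and 8.67% and 22.2% in fibroblast-like cells. Thinning left out 348 control and 18 case VSMC-like cells and 41 and 6 fibroblast-like cells that were shallower. No class of the artery lacked Pycard. Acta2, the contractile actin of VSMCs and a gene of the VSMC gate, stood in the other classes at 3.78% to 4.65% of its VSMC-like level in the control and 5.35% to 7.64% in the case library, while Pycard stood at 45.9% to 76.1% and 37.0% to 86.5%. The gate itself sets the Acta2 level of each class, and the part of free RNA in the Pycard counts was not tested.

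The depth of a barcode moved with its Pycard level, and the libraries differed in depth. Below 1000 UMIs, 348 control VSMC-like cells held 985 CPM (851 to 1134) and 0.555 Pycard UMIs per barcode, and 18 case cells held 3462 CPM (2629 to 4475) and 3.22 UMIs per barcode (log2 1.81, 1.36 to 2.24). From 1000 UMIs on, Pycard in control VSMC-like cells fell from 2576 CPM (2305 to 2870) in barcodes of 1000 to 1999 UMIs to 981 CPM at 2000 to 3999, 313 CPM at 4000 to 7999, 145 CPM at 8000 to 15999 and 109 CPM in deeper barcodes. In case VSMC-like cells the same steps held 1614 CPM (1401 to 1851), 438, 330, 248 and 119 CPM. The number of Pycard UMIs in a barcode varied much less, from 1.79 to 3.54 in the control and from 1.41 to 2.56 in the case library over these steps. At 4000 to 7999 UMIs the average was 1.89 Pycard UMIs per barcode in both libraries, and the case to control log2 ratio was 0.08 (-0.12 to 0.28). It was 0.78 (0.65 to 0.91) at 8000 to 15999 UMIs, and it was negative at 1000 to 1999 UMIs, at -0.67 (-0.93 to -0.42), and at 2000 to 3999 UMIs, at -1.16 (-1.40 to -0.92). The VSMC-like difference between libraries thus differed in sign between depth steps. Depth was not matched within a step. At 4000 to 7999 and 8000 to 15999 UMIs the control VSMC-like and fibroblast-like barcodes were deeper on average. At 8000 to 15999 UMIs, 607 control VSMC-like cells held 1086 Pycard UMIs and 354 case cells held 878. The VSMC-like log2 ratio was -0.16 (-0.31 to 0.00) when cells were thinned to 1000 UMIs, and -0.25 as the mean of single-cell CPM. At 4000 to 7999 UMIs, 46 of 113 control but 74 of 1645 case VSMC-like cells held 10 to 20% mitochondrial UMIs. There Pycard stood at 121 CPM in control and 293 CPM in case cells below 5%, and at 257 and 335 CPM at 5 to 10%. At 10 to 20% it stood at 473 and 427 CPM. How far depth, mitochondrial share or cluster sets the difference was not tested.

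In fibroblast-like cells the case library was the higher at every depth. The log2 ratio was 0.32 (-0.16 to 0.83) at 2000 to 3999 UMIs, where the interval included no difference, 0.79 (0.55 to 1.05) at 4000 to 7999 UMIs and 0.60 (0.39 to 0.81) at 8000 to 15999 UMIs. Both of the latter are smaller than the 1.59 of the pooled class. In barcodes of 4000 to 7999 UMIs, 164 control fibroblast-like cells averaged 0.921 Pycard UMIs and 848 case cells averaged 1.46. At 8000 to 15999 UMIs, 365 control cells held 434 Pycard UMIs and 224 case cells held 340. In endothelial-like cells the log2 ratio was 0.90 (0.15 to 1.75) at 4000 to 7999 UMIs and 0.07 (-0.67 to 0.80) at 8000 to 15999 UMIs, from 23 control and 16 case cells.

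**Figure D2:**
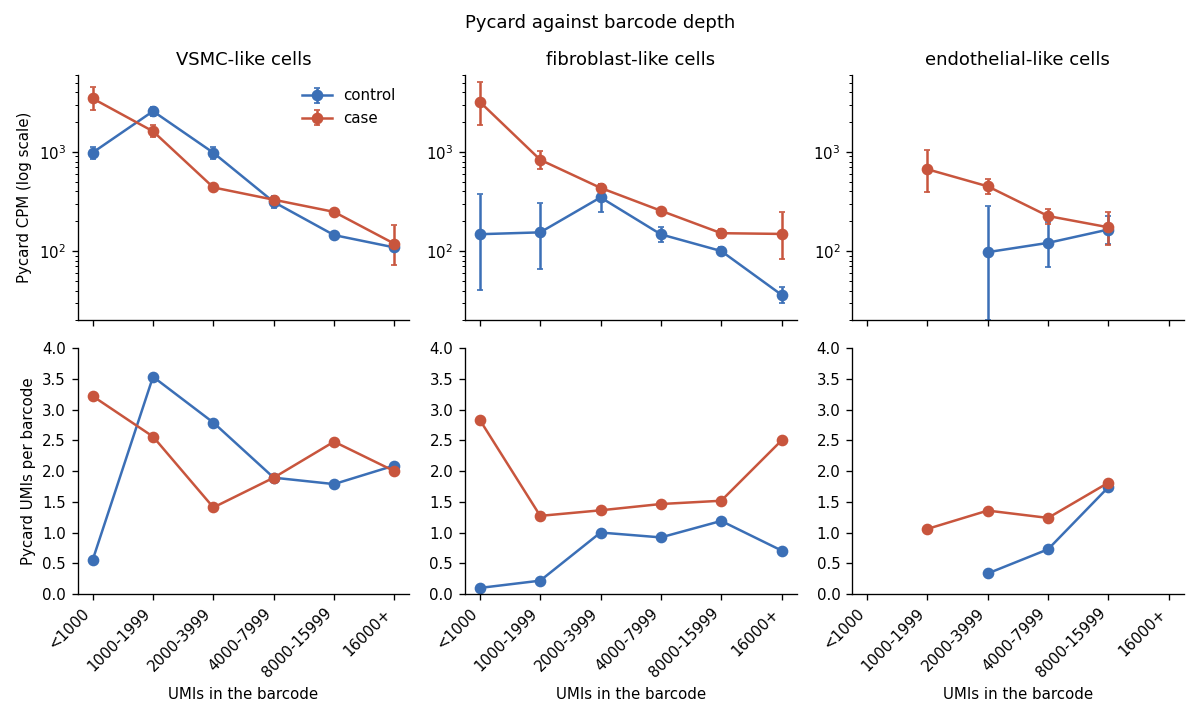
Pycard in 3 cell classes against the UMIs of the barcode, control in blue and case in red. The upper row gives CPM (log axis) with exact 95% Poisson intervals, the lower row Pycard UMIs per barcode, for steps with at least 5 cells. In VSMC-like cells CPM falls from 1000 UMIs on in both libraries and the libraries meet at 4000 to 7999 UMIs, while control fibroblast-like cells peak at 2000 to 3999 UMIs (348 CPM) and control endothelial-like cells rise from 97.5 to 165 CPM.

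The fall with depth was steeper for Pycard than for other genes of VSMC-like cells. Among 2540 genes at 50 CPM or more in control barcodes of 8000 to 15999 UMIs, the level at 1000 to 1999 UMIs over that at 8000 to 15999 UMIs was 17.8 for Pycard, rank 1, against a median of 0.702. It was 6.50 for Pycard, again rank 1, among 2497 genes of the case library, against a median of 0.817. Next in the control library came Dync1h1, the dynein heavy chain, at 8.73. In fibroblast-like cells Pycard ranked 426 of 2374 genes in the control and 6 of 2375 in the case library.

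Shallow VSMC-like barcodes were not all alike. Of those in the control library, 154 fell into a Leiden cluster with a median of 1362.5 UMIs, a median mitochondrial share of 9.63% and 4.58 Pycard UMIs per barcode (2309 CPM). Another 273 fell into a cluster with a median of 484 UMIs, a median mitochondrial share of 7.86% and 0.0293 Pycard UMIs per barcode (51.8 CPM). The libraries also filled different clusters: 55.8% of control VSMC-like cells lay in cluster 4, which held 6.18% of the case cells, while 44.5% and 43.0% of case cells lay in clusters 1 and 2, which held 8.44% and 3.95% of the control cells. Within a cluster Pycard stood at 236 CPM (203 to 273) in control and 305 CPM (292 to 319) in case cells of cluster 1, at 247 (202 to 298) and 351 (337 to 366) in cluster 2, and at 130 (123 to 137) and 219 (195 to 245) in cluster 4. In the shallow cluster 6 the order was the opposite, with 2309 CPM (2142 to 2486) in control and 1426 CPM (1278 to 1586) in case cells. Most fibroblast-like cells lay in clusters 3 and 5, where Pycard stood at 85.1 and 72.1 CPM in control and at 248 and 257 CPM in case cells. Cluster 11 held 65 control and 25 case fibroblast-like cells at 27.3 CPM (3.30 to 98.4) and 125 CPM (40.6 to 292), and cluster 2 held 37 case cells at 273 CPM.

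The mitochondrial share of a barcode moved with Pycard too. Over all barcodes before filtering, control barcodes rose from 112 CPM (107 to 118) below 5% mitochondrial UMIs to 587 CPM (528 to 651) at 10 to 15% and 1130 CPM (1032 to 1234) at 15 to 20%. Case barcodes rose from 279 CPM (270 to 287) to 728 (672 to 787) and 1764 CPM (1617 to 1921) over the same steps. Above 50% Pycard stood at 93.4 CPM (34.3 to 203) from 6 UMIs and 26.3 CPM (0.666 to 147) from 1 UMI. Within the depth step of 8000 to 15999 UMIs, VSMC-like cells below 5%, at 5 to 10% and at 10 to 20% mitochondrial UMIs held 129 (116 to 142), 157 (146 to 169) and 118 CPM (75.4 to 175) in the control library, the last from 24 UMIs. The case library held 238 (207 to 272), 253 (234 to 273) and 228 CPM (145 to 342), with overlapping intervals. At 4000 to 7999 UMIs the same groups rose from 121 (68.9 to 196) to 257 (202 to 323) and 473 CPM (393 to 565) in the control library, and from 293 (271 to 317) to 335 (322 to 349) and 427 CPM (365 to 496) in the case library. At 1000 to 3999 UMIs they went opposite ways, from 2211 (1806 to 2679) to 1601 (1384 to 1841) and 1451 CPM (1264 to 1658) in the control library and from 397 (330 to 474) to 417 (378 to 459) and 942 CPM (845 to 1048) in the case library. The part of damaged or dying cells in these values was not tested.

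**Figure D3:**
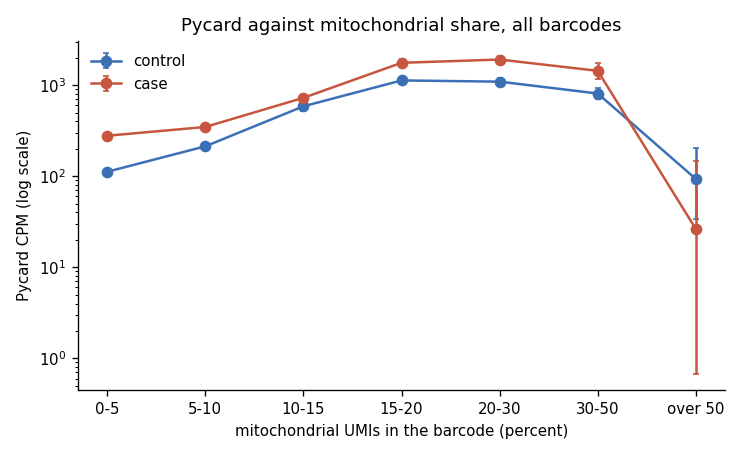
Pycard CPM (log axis) with exact 95% Poisson intervals against the percent of mitochondrial UMIs, over all 3321 control (blue) and 5656 case (red) barcodes before filtering. Both libraries rise up to 15 to 30% and drop above 50%, where 6 and 1 Pycard UMIs were counted.

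Nlrp3, the sensor, was concentrated in macrophage-like cells. It stood at 459 CPM (388 to 540) in 39 control and 291 CPM (247 to 339) in 100 case macrophage-like cells, from 147 and 160 UMIs. In the control library 6 UMIs were counted in 1469 VSMC-like cells and 8 in 802 fibroblast-like cells, all 8 in 1 cell. In the case library 1 and 2 UMIs were counted in 2587 VSMC-like and 1538 fibroblast-like cells. Endothelial-like cells held 0 UMIs in both libraries, which allows up to 7.06 CPM in the control and 2.61 CPM in the case library. The macrophage-like level was 1020-fold (458 to 2826) that of VSMC-like cells in the control library. It was 65.1-fold the level that 3 counts would give in endothelial-like cells of that library. Macrophage-like cells held 76.2% of the control and 90.4% of the case Nlrp3 UMIs. Unassigned barcodes held 32 and 14 UMIs, of which 30 and 13 lay in barcodes with a UMI of Ptprc, the pan-leukocyte phosphatase.

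Nlrp3 was 1.58-fold lower in the case macrophage-like cells (log2 -0.66, -0.99 to -0.33). It was detected in 69.2% (52.4 to 83.0) of control and 43.0% (33.1 to 53.3) of case cells, and after thinning to 1000 UMIs in 30.8% (17.0 to 47.6) of 39 and 17.2% (10.3 to 26.1) of 99 cells. In VSMC-like cells the shares were 0.272% and 0.0387%, at median depths of 10334 and 5475 UMIs against 8348 and 5033.5 in macrophage-like cells. The log2 ratio was -0.63 (-1.14 to -0.09) at 4000 to 7999 UMIs, with 14 control and 59 case cells, and -0.57 (-1.21 to 0.03) at 8000 to 15999 UMIs, with 22 and 10 cells, where the interval included no difference. The lower case value was thus of like size at both depths. It fell short of the 2-fold limit of a call.

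Il18, the cytokine precursor, had a similar distribution. Macrophage-like cells held 93.8 CPM (63.3 to 134) in the control and 69.1 CPM (48.9 to 94.8) in the case library, from 30 and 38 UMIs. Elsewhere few Il18 UMIs were counted, with 2 and 0 UMIs in control and case fibroblast-like cells, 1 and 0 in the VSMC-like class and 0 and 1 in the endothelial-like class. Unassigned barcodes held 14 and 11 Il18 UMIs, of which 13 and 9 lay in barcodes with a Ptprc UMI. No fold between libraries is given for these 3 classes, since both are at or under 3 counts. In macrophage-like cells the log2 ratio was -0.44 (-1.17 to 0.30), which includes no difference, and it changed sign with depth, at 0.86 (-0.66 to 2.83) for 4000 to 7999 UMIs and -1.21 (-2.95 to 0.19) for 8000 to 15999 UMIs. Il18 was detected in 41.0% (25.6 to 57.9) of control and 26.0% (17.7 to 35.7) of case cells, and after thinning in 10.3% and 4.04%.

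Casp1, the protease, was counted mostly in classes other than VSMC-like cells. It stood at 13.0 CPM (10.7 to 15.6) and 12.1 CPM (9.88 to 14.7) in control and case fibroblast-like cells, at 33.0 CPM (18.0 to 55.3) and 30.4 CPM (21.2 to 42.3) in endothelial-like cells, and at 25.0 CPM (10.8 to 49.3) and 29.1 CPM (16.6 to 47.2) in macrophage-like cells. VSMC-like cells held 3 UMIs in 1469 control and 5 UMIs in 2587 case cells, 0.225 CPM (0.0464 to 0.658) and 0.337 CPM (0.109 to 0.786). Over both libraries the macrophage-like level was 97.1-fold (42.2 to 250) and the endothelial-like level 110-fold (51.5 to 268) that of VSMC-like cells, and 6 of the 8 VSMC-like UMIs lay in the 151 cells with the highest doublet scores. Those cells were not called doublets, and whether they are was not tested. Endothelial-like and macrophage-like cells could not be ordered (ratio 1.13, 0.679 to 1.92), and both exceeded fibroblast-like cells over both libraries, by 2.48-fold (1.78 to 3.39) and 2.20-fold (1.38 to 3.36). The macrophage-like over fibroblast-like ratio was 1.92 (0.811 to 3.92) in the control library, which includes no difference, and 2.40 (1.32 to 4.09) in the case library. In the control library 1 cell gave 4 of the 8 macrophage-like UMIs, and the level without it was 13.0 CPM. Fibroblast-like cells held 78.9% of the control and 57.9% of the case Casp1 UMIs. Of all genes they held 8616822 of the 23974210 UMIs kept in the control and 8511250 of the 27054902 in the case library.

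Casp1 differed little between libraries. The log2 ratio was 0.22 (-1.09 to 1.65) in macrophage-like cells, -0.11 (-1.05 to 0.89) in the endothelial-like class and -0.10 (-0.50 to 0.30) in fibroblast-like cells. Each interval included no difference, and the first pair also included a 2-fold difference. In the same fibroblast-like cells Pycard was 3.02-fold higher in the case library. The adaptor and the protease thus did not move together in the pooled fibroblast-like class. VSMC-like cells held most of the Pycard UMIs, as they did of all UMIs, with 8 Casp1 UMIs in 4056 cells.

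Gsdmd, the pore protein, was sparse in every class. VSMC-like cells held 4.58 CPM (3.50 to 5.88) in the control and 5.12 CPM (4.04 to 6.41) in the case library. Fibroblast-like cells held 14.0 CPM (11.7 to 16.8) and 7.17 CPM (5.48 to 9.21), from 121 and 61 UMIs. Endothelial-like cells held 6 and 8 UMIs, and macrophage-like cells 0 and 3 UMIs, where 0 allows up to 9.38 CPM. In the control library the fibroblast-like level was 3.07-fold (2.24 to 4.24) that of VSMC-like cells. In the case library this ratio was 1.40 (0.982 to 1.99).

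The Gsdmd level of fibroblast-like cells was 1.96-fold lower in the case library (log2 -0.97, -1.44 to -0.51), the 4.51 percentile of all genes compared and just short of the 2-fold limit. In VSMC-like cells the log2 ratio was 0.16 (-0.34 to 0.67). Gsdmd was detected in 12.3% (10.1 to 14.8) of control and 3.90% (2.99 to 4.99) of case fibroblast-like cells, and after thinning in 0.657% and 0.914%, from 5 and 14 UMIs. The thinned share rests on these few UMIs, its intervals overlap and it goes against the CPM, so no order was read from it. The fibroblast-like difference was as large within depth steps, with a log2 ratio of -1.29 (-2.21 to -0.32) at 4000 to 7999 UMIs and -1.09 (-1.98 to -0.29) at 8000 to 15999 UMIs.

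Few macrophage-like cells carried UMIs of the whole set. Among 39 control cells, 7 held both Nlrp3 and Pycard UMIs, 3 held Nlrp3 and Casp1, 0 held Pycard and Casp1 (which allows up to 7.69%), and 10 held Nlrp3 and Il18. Among 100 case cells these counts were 12, 4, 5 and 15, and 1 cell held Nlrp3, Pycard and Casp1 together. Il1b, which encodes IL-1β, was detected in 13 control cells, of which 12 also held Nlrp3, and in 23 case cells, of which 13 did. At these depths an absent UMI does not show that a cell lacks the transcript.

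**Figure D4:**
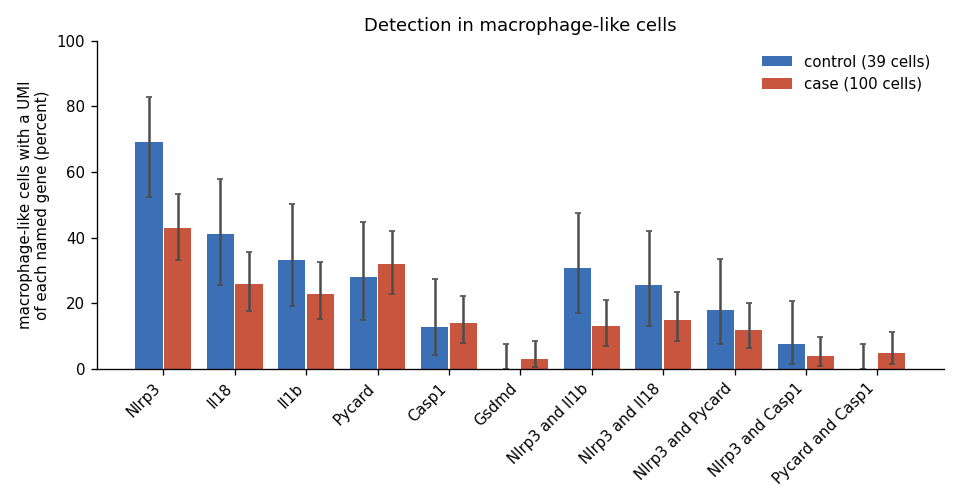
Percent of macrophage-like cells with at least 1 UMI of a gene or of both genes of a pair, for 39 control (blue) and 100 case (red) cells at unequal depth. Bars carry exact 95% binomial intervals. Nlrp3 is found in 69.2% and 43.0% of cells, and pairs with Casp1 in few.

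The genes with the pattern most like each member were ranked by Pearson's r of log2(CPM + 1) over the 7 class and library combinations with at least 50 cells, among 5050 genes. The control macrophage-like cells were too few to enter, so 1 combination sets the rank for a macrophage gene. Nearest to Pycard were Dync1h1 (r = 0.969), LOC103692785 (0.960), AC134224.3 (0.957), the mitochondrial fission gene Dnm1l (0.953) and Rbm27 (0.942). Nearest to Nlrp3 were Fcmr (r = 1.00), Aif1 (0.999) and Adgre1 (0.999), the last being a macrophage marker of the gate, and nearest to Il18 were Clec10a (0.998), Cybb (0.996) and Tatdn2 (0.995). Nearest to Casp1 were Fam43a (0.988), Tmod3 (0.985) and Il4r (0.982), and nearest to Gsdmd were St3gal4 (0.975), Ifitm2 (0.968) and Tagln2 (0.944). Among the members, Nlrp3 and Il18 were most alike (r = 0.982), whereas r between Pycard and the other 4 ran from -0.58 to -0.34. These values describe combinations that share libraries and depths.

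A list of 45 further genes of the pathway, of which 42 were found, was counted in the same way. In VSMC-like cells 26 had at least 30 UMIs, of which 1 was at least 2-fold higher in the case library and 0 lower, beside 2.09% and 3.96% of all genes compared. Of 27 compared in fibroblast-like cells, 3 were higher and 1 lower, beside 3.15% and 3.96%. Of 14 compared in the macrophage-like class 1 was higher and 1 lower, beside 8.14% and 4.39%, and of 14 in the endothelial-like class 2 were higher and 1 lower, beside 10.6% and 12%. The median log2 ratio of the list and of all genes compared was -0.05 and -0.14 in VSMC-like cells and -0.31 and -0.07 in the fibroblast-like class. It was 0.03 and 0.04 in macrophage-like cells and 0.18 and -0.10 in the endothelial-like class.

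Other sensors except Nod1 were scarce. Nlrc4, which senses bacterial flagellin and secretion systems through Naip proteins, was found in macrophage-like cells at 53.1 CPM in the control and 29.1 CPM in the case library (17 and 16 UMIs), with 2 UMIs in all other classes compared. Nlrp1a held 13 and 30 UMIs in control and case fibroblast-like cells, a 2.34-fold higher level in the case library (1.18 to 4.88), and 9 and 17 UMIs in endothelial-like cells. Its log2 ratio in fibroblast-like cells was 1.84 (-0.83 to 7.22) at 4000 to 7999 UMIs and 0.73 (-1.12 to 2.52) at 8000 to 15999 UMIs, with intervals that included no difference. Nod1, a sensor of peptidoglycan fragments, was found in VSMC-like cells at 11.7 and 13.1 CPM and in fibroblast-like cells at 19.1 and 13.9 CPM. In endothelial-like cells it stood at 28.2 and 36.5 CPM, from 12 and 42 UMIs. Aim2, the DNA sensor, held 2 and 4 UMIs, all in macrophage-like cells, Nlrp10 held 1 UMI in the 4 classes and Nlrp12 none.

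The other caspases and pore genes differed in where they were counted. Casp4, which binds cytosolic lipopolysaccharide, stood at 25.9 CPM (223 UMIs) in control and 13.0 CPM (111 UMIs) in case fibroblast-like cells, a 1.98-fold lower level in the case library (log2 -0.99, -1.33 to -0.65). At 8000 to 15999 UMIs its log2 ratio was -0.26 (-0.84 to 0.30). Casp12, a caspase of the endoplasmic reticulum, stood at 21.0 and 20.4 CPM in control and case VSMC-like cells and at 21.6 and 21.0 CPM in the fibroblast-like class. Ninj1, which ruptures the membrane of dying cells, stood at 1128 and 1032 CPM in macrophage-like cells and at 130 and 86.5 CPM in VSMC-like cells. Gsdma, Gsdmc and Gsdme held at most 16 UMIs in any class and library.

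Among the cytokines, Il1b stood at 159 CPM (51 UMIs) in control and 354 CPM (195 UMIs) in case macrophage-like cells, 2.22-fold higher (log2 1.15, 0.70 to 1.63). The share of cells with an Il1b UMI went the other way, at 33.3% (13 of 39) in control and 23.0% (23 of 100) in case cells. The case UMIs thus lay in few cells, which the counting interval does not cover. The direction of the CPM ratio depended on depth, with 2.35 (1.39 to 3.50) at 4000 to 7999 UMIs and -1.42 (-2.82 to -0.25) at 8000 to 15999 UMIs. Il1a held 0 and 11 UMIs in macrophage-like cells and 0 UMIs in the other classes compared. Its case level was 2.13-fold the level that 3 control counts would give, a value without the counting error of the 11 UMIs. Il1rn, the receptor antagonist, stood at 366 and 418 CPM in macrophage-like cells. Il33, an alarmin of stromal nuclei, stood at 310 and 171 CPM in fibroblast-like cells (log2 -0.85, -0.95 to -0.76) and at 54.1 and 138 CPM in endothelial-like cells (log2 1.35, 0.72 to 2.05).

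Among the receptors, Il18r1, the ligand-binding chain of the IL-18 receptor, held 3 UMIs in 2 of 802 control and 73 UMIs in 41 of 1538 case fibroblast-like cells, 0.348 CPM and 8.58 CPM, a ratio of 24.6 (8.10 to 122). At 4000 to 7999 UMIs 164 control cells held 0 UMIs, which allows up to 2.93 CPM, and 848 case cells held 47 UMIs (9.66 CPM). At 8000 to 15999 UMIs 365 control cells held 0 UMIs, which allows up to 0.692 CPM, and 224 case cells held 21 UMIs (9.35 CPM). Il18rap, its signalling chain, held 1 and 8 UMIs, and Il18bp, the soluble decoy, stood at 13.7 and 11.0 CPM. Il1r1, the IL-1 receptor, stood at 7.66 and 15.9 CPM in fibroblast-like cells (log2 1.05, 0.62 to 1.50) and at 1.65 and 3.91 CPM in VSMC-like cells (log2 1.24, 0.51 to 2.02).

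Of the priming genes, Tnfaip3, which encodes A20, a brake on NF-κB, was 2.47-fold lower in case fibroblast-like cells (log2 -1.30, -1.90 to -0.73, from 90 and 36 UMIs). Within depth steps its log2 ratio was -1.25 (-2.41 to 0.01) at 4000 to 7999 UMIs and -0.52 (-1.56 to 0.43) at 8000 to 15999 UMIs, both with intervals that included no difference. Nfkb1 stood at 256 and 158 CPM in the same cells (log2 -0.69, -0.79 to -0.59), with 0.29 (0.03 to 0.57) at 4000 to 7999 UMIs and -0.28 (-0.45 to -0.11) at 8000 to 15999 UMIs. Gbp5, a guanylate-binding protein induced by interferon-gamma, was 2.31-fold lower in case macrophage-like cells (log2 -1.21, -1.96 to -0.48, from 39 and 29 UMIs). Its direction depended on depth, with 0.86 (-0.89 to 3.25) at 4000 to 7999 UMIs and 36 control against 0 case UMIs at 8000 to 15999 UMIs, where 10 case cells were compared. Brcc3, a deubiquitinase of Nlrp3, was 2.21-fold lower in case endothelial-like cells (log2 -1.14, -2.01 to -0.26, from 22 and 27 UMIs), with -1.23 (-2.66 to 0.34) and -1.68 (-4.12 to 0.16) at the same depths. It was also lower in VSMC-like (log2 -0.88, -1.13 to -0.63) and fibroblast-like cells (-0.53, -0.79 to -0.28). At these depths the VSMC-like ratios were -1.10 (-1.77 to -0.37) and -0.85 (-1.34 to -0.39). The fibroblast-like ratios were -0.71 (-1.21 to -0.18) and -0.63 (-1.09 to -0.20). In macrophage-like cells they were 0.17 (-1.70 to 2.62) and 1.75 (-0.32 to 4.02). P2rx7, the ATP-gated channel, held at most 3 UMIs in any class and library.

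**Figure D5:**
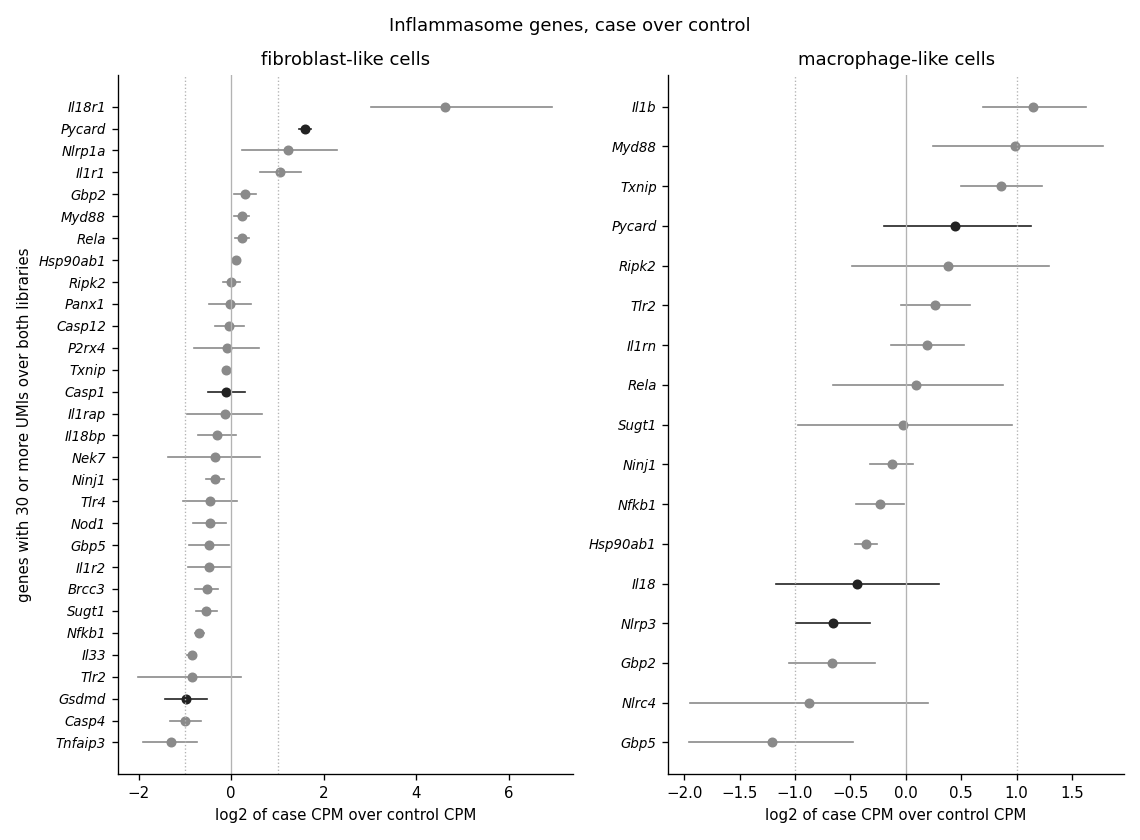
Log2 of case over control CPM with 95% counting intervals for the inflammasome genes with at least 30 UMIs in fibroblast-like (left) and macrophage-like (right) cells, members in black and other genes in grey. Dotted lines mark 2-fold. In fibroblast-like cells Il18r1 (4.62) and Pycard (1.59) lead and Tnfaip3 (-1.30) is lowest, and in macrophage-like cells Il1b (1.15) leads and Gbp5 (-1.21) is lowest.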

How the data were processed

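Per the deposited file headers and the study's methods, the authors counted UMIs per gene and barcode with Cell Ranger 3.1.0, and the deposited matrix holds raw whole-number counts. The submitters' processing notes name Rnor_6.0 and Seurat. Whether counts were down-sampled before deposit, and whether strand was used, is not given in the sources used here. Libraries were assigned by the barcode numbers in the methods (suffix with 5656 barcodes, case, and with 3321, control). Totals were 24968329 control and 28232614 case UMIs. Depth limits sparse genes: a count of 0 allows up to 3. Per RefSeq GRCr8, Casp1 and Nlrp3 each overlap 1 gene, Il18 overlaps Bco2 and Tex12.

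Barcodes were kept at up to 20% mitochondrial UMIs, within 2 SD of the log UMI and gene distributions, and within 3 robust SD of their linear relation. A class needed 3 UMIs from 2 panel genes, 0.25 of a reference level (UMIs per 10000) and 2 times the next class. These limits were set after seeing the data, and 6.79% of kept barcodes lay within 20% of one. T cell and Schwann panels gated 1 and 23 control and 3 and 45 case cells. Scrublet in scanpy 1.11.5 marked 6 control and 0 case barcodes, too few for the caller to have worked, so doublets were kept. Leiden clusters (resolution 0.8) followed 2000 variable genes and 30 components.

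UMIs were summed per class and library as CPM with exact 95% Poisson intervals. Shares have exact Clopper-Pearson and ratios conditional binomial intervals. With 1 library a group no test was made. A call meant a 2-fold difference with at least 30 UMIs. No fold is given where both groups are at or under 3 UMIs. The members and lists were chosen with earlier results of these data known. A listed gene is not reported here and was left out of the list. Named were the 5 members, a selection of the listed pathway genes, and the 5 (Pycard) or 3 genes most alike. The other listed genes were counted, so not all sensors, caspases or genes with 30 UMIs are named. Python 3.11.15, numpy 2.4.6, scipy 1.17.1, pandas 2.3.3, matplotlib 3.10.9, R 4.3.3 and edgeR 4.0.16 (TMM only) were used. The fold calls and ratio intervals were tested on simulated Poisson counts of VSMC-like cells. The gate, filter, thinning and depth steps were not tested in this way.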

Additional observations from a re-analysis of the deposited data

Results flagged for a closer look

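Il33 moved in opposite directions in 2 cell classes: log2 case over control was 1.35 in endothelial-like and -0.85 in fibroblast-like cells, each with a counting interval clear of 0. The difference between the classes was not tested, as each library is 1 sample. In endothelial-like cells the ratio was 2.20 (0.93 to 3.85) in barcodes of 4000 to 7999 UMIs and -2.63 (-5.78 to -0.57) at 8000 to 15999 UMIs, where 2 case UMIs were counted, whereas in fibroblast-like cells it was -0.42 and -0.29.

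Pycard was also counted in barcodes that the mitochondrial limit had removed. It stood at 1679 CPM (1561 to 1804) in 370 case barcodes and at 925 CPM (862 to 992) in 562 control barcodes. Casp1 held 0 UMIs in both of these sets.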

How the results depend on the processing

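Of 7 ratios, 6 gave a value, and that of Il18 in fibroblast-like cells had 2 control and 0 case UMIs under the main settings and at most those under every alternative. Casp1 case over control in macrophage-like cells stayed within its interval under 11 alternatives (0.20 to 0.75), and gave no ratio when thinned or at 4000 to 7999 UMIs. Casp1 in macrophage-like over VSMC-like cells moved from log2 6.60 to 7.97 with the stricter gate and 8.54 without the highest 5% of doublet scores, and gave none when thinned. Gsdmd in fibroblast-like cells stayed within its interval under 12 alternatives and reversed to 0.48 (-1.08 to 2.30) when cells were thinned to 1000 UMIs, with 14 and 5 UMIs left. Pycard in fibroblast-like cells kept its direction under all 13, with 1.46 when thinned and 1.46 as mean CPM of single cells. It was 0.79 and 0.60 in the depth steps of 4000 to 7999 and 8000 to 15999 UMIs, within which depth was not matched. Pycard in VSMC-like cells moved from 0.82 to 0.92 with a 10% mitochondrial limit, 1.06 without barcodes under 2000 UMIs, 0.55 with Leiden classes, 1.05 with the stricter gate, 0.95 with TMM and 0.08 at 4000 to 7999 UMIs, and reversed to -0.16 when thinned and -0.25 as mean CPM of single cells. Both of the latter weight shallow barcodes more. Pycard in macrophage-like cells moved from 0.45 to 1.51 (0.66 to 2.45) with the 10% limit and 1.45 (0.60 to 2.40) without barcodes under 2000 UMIs. It moved to -1.12 (-2.34 to 0.12) when thinned, -1.27 as mean CPM and 2.58 (0.53 to 5.13) at 8000 to 15999 UMIs. The first pair leaves out the control barcode with 15 Pycard UMIs. Leaving out shared barcodes, choosing 4000 to 7999 or 8000 to 15999 UMIs and leaving out the highest scores were chosen after seeing the data. No paired analysis by animal was possible because the arteries of both rats were pooled in each library. Leaving out a replicate could not be done with 1 library a group.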

Other observations

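Dync1h1, the gene nearest to Pycard by pattern over classes, also ranked high by the fall with depth: its level at 1000 to 1999 UMIs over that at 8000 to 15999 UMIs was 8.73 (rank 2) in control and 3.62 (rank 5) in case VSMC-like cells. Other genes with a steep fall were AC134224.2 (7.52), AC134224.1 (6.07), Ints6 (4.74) and Ep400 (4.53) in the control library and Ccl2 (5.65), Vault (4.05) and Tdp2 (3.87) in the case library, all named after their values were seen.

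Unassigned barcodes held Pycard at 753 CPM (704 to 804) in the control and 474 CPM (443 to 506) in the case library, above each of the 4 classes compared, at median depths of 1362 and 3500 UMIs. They held 20.9% and 10.4% of the Pycard UMIs of their libraries. Nlrp3 held 21 UMIs in 1 control barcode that limits other than the mitochondrial one had removed.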
